A study of Mus musculus with 9 samples.

Results

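The microRNA and hairpin processing machinery was taken as every gene named Drosha, Dgcr8, Xpo5, Dicer1, Ago2 (also written Eif2c2), Tnrc6a, Tnrc6b or Tnrc6c. All 8 were among the 10340 genes measured, so all 8 are described. A microRNA is cut from a long nuclear RNA by Drosha, a nuclease, with its RNA-binding partner DGCR8. Exportin 5, the product of Xpo5, carries the hairpin to the cytoplasm, where Dicer trims it to a short duplex. Argonaute 2 (Ago2) holds the guide strand, and the GW182 proteins TNRC6A, TNRC6B and TNRC6C bind Argonaute and recruit the enzymes that shorten the poly(A) tail of the target messenger RNA. A vector-made short hairpin RNA is shaped like the product of Drosha and depends on exportin 5, Dicer and Argonaute.

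The RNA came from NIH 3T3 cells, an immortalised line of mouse embryonic fibroblasts, grown in monolayer and selected after lentiviral infection. In the 3 control cultures the hairpin, shControl, was aimed at the gene of red fluorescent protein, which these cells lack. A further 3 cultures carried shCNKSR2_1 and 3 carried shCNKSR2_2, hairpins of different sequence against Cnksr2, which encodes a scaffold of Ras signalling. All 9 libraries therefore came from cells that expressed a hairpin, and cells free of any hairpin were not among them. Values are FPKM, fragments scaled to transcript length and to the mapped total of the library, so that levels can be compared between genes, and the depth of the libraries is unknown. All 8 fibroblast markers checked were measured in the table, none of the epithelial, endothelial or muscle markers was listed, and of 3 blood cell markers only Cd68 was, at 1.90 to 3.58 FPKM. Cnksr2 itself was not analysed here, so its knockdown was not checked. On the first principal component (67.5% of the variance) shCNKSR2_1 replicate 1 lay at -1.71, apart from replicates 2 and 3 of its group at 5.98 and 4.63. Control libraries lay between -16.9 and -16.1 on this axis and shCNKSR2_2 libraries between 13.4 and 13.8.

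In control cells Xpo5 was the most abundant of the 8 transcripts at 37.5 ± 0.504 FPKM (SD, n = 3 here and below), followed by Drosha at 29.3 ± 0.238 FPKM. Ago2 stood at 18.0 ± 0.104 and Dgcr8 at 17.3 ± 0.309 FPKM. Tnrc6a followed at 15.0 ± 0.0654, Dicer1 at 11.3 ± 0.174, Tnrc6c at 9.08 ± 0.604 and Tnrc6b at 5.71 ± 0.191 FPKM. The same order of means was seen in all 3 groups. Libraries of neighbouring genes in this order did not overlap, with the exception of Ago2 and Dgcr8 in the shCNKSR2_1 group. Xpo5 was above 80.7% of the genes in the table and Tnrc6b above 22.9%, while the other 6 lay between.

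**Figure D1:**
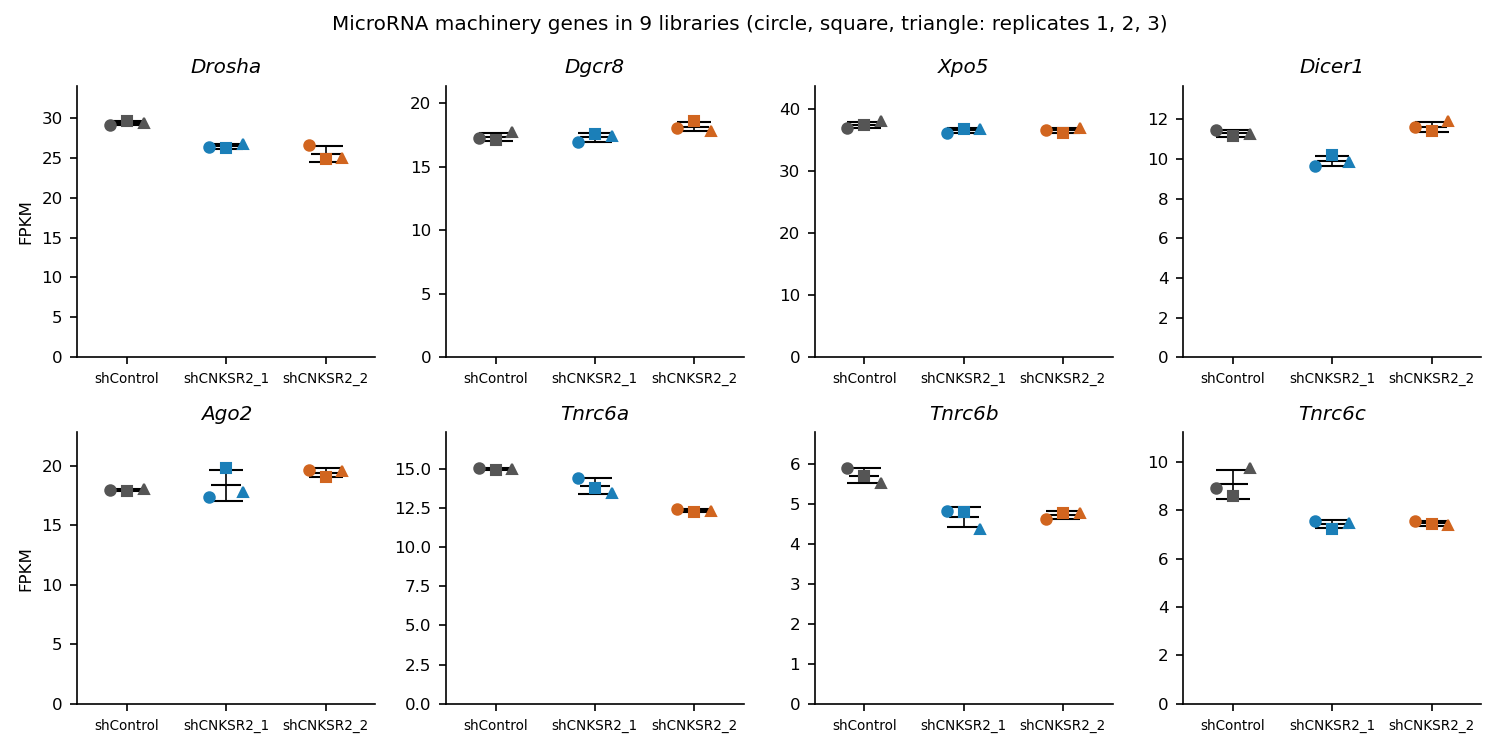
FPKM of the 8 machinery genes in each of 9 libraries, by group, each panel on its own axis from 0. Points are libraries, and bars give the mean and SD of 3 libraries. Drosha, Tnrc6a, Tnrc6b and Tnrc6c lie lower in every library of both Cnksr2 hairpins than in any control library, and Dicer1 lies lower with shCNKSR2_1. Xpo5 also lies lower in every library of both hairpins, though it was not called. Such a separation was seen for 26.6% of all genes with shCNKSR2_1 and 34.7% with shCNKSR2_2.

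The GW182 genes and Drosha fell with both Cnksr2 hairpins, and Dicer1 fell with shCNKSR2_1. The falls were small, between 7.40% and 18.3% of the control mean, with the smallest, that of Tnrc6a with shCNKSR2_1, dependent on which libraries were used. Changes were tested with limma on log2(FPKM + 1) across all genes and called at a Benjamini-Hochberg adjusted p under 0.05. This scale slightly understates the ratio of FPKM for low genes. With shCNKSR2_1, 5 of the 8 genes were called lower, against 19.3% of all genes. With shCNKSR2_2, 4 were called lower, against 28.2% of all genes. In either direction 32.8% and 48.2% of all genes were called. The same 4, Drosha, Tnrc6a, Tnrc6b and Tnrc6c, were called lower with both hairpins, as were 15.2% of all genes, and both comparisons use the same control libraries. None of the 8 was called higher by limma with either hairpin, against 13.6% and 20% of all genes, and at an unadjusted p under 0.05 the count was 0 with shCNKSR2_1 and 1, Ago2, with shCNKSR2_2. With shCNKSR2_2 the number called higher was 2, Dgcr8 and Ago2, under median-ratio or quantile scaling and with a GC or length trend removed. The median log2 fold change of the 8 was -0.12 with shCNKSR2_1 and -0.11 with shCNKSR2_2, beside -0.025 and -0.029 over all genes. Over all genes, 1405 were called higher and 1991 lower with shCNKSR2_1, and 2066 and 2918 with shCNKSR2_2, and this split moved with the scaling, to 1794 and 1564, and to 2460 and 2424, when libraries were rescaled by median ratios. In cultures measured in bulk, fewer cells with a transcript and less of it per cell cannot be told apart.

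**Figure D2:**
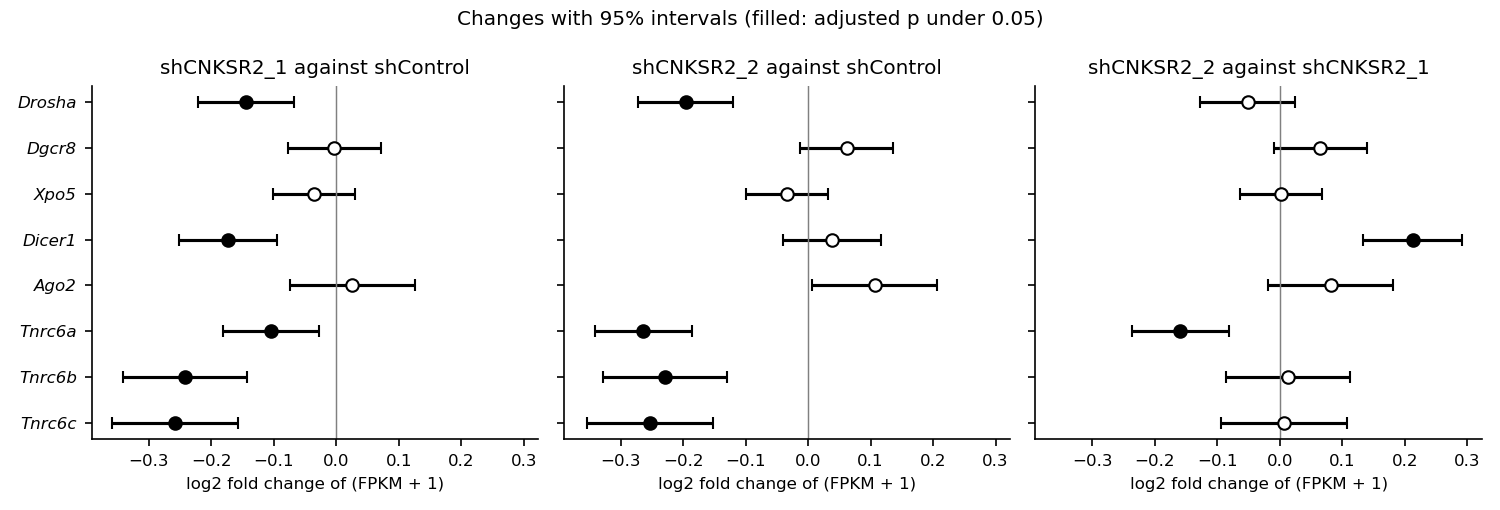
Log2 fold changes of (FPKM + 1) with 95% intervals for the 8 machinery genes in 3 comparisons, with filled points for an adjusted p under 0.05. The intervals of Drosha and the Tnrc6 genes lie below 0 in both comparisons with the control, and Dicer1 (0.21) and Tnrc6a (-0.16) differ between the hairpins.

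Of the GW182 genes, Tnrc6a encodes the protein first described as GW182. It stood at 15.0, 14.9 and 15.0 FPKM in control libraries, at 14.4, 13.7 and 13.4 with shCNKSR2_1 and at 12.4, 12.2 and 12.3 with shCNKSR2_2. The 3 groups did not overlap, and the libraries of shCNKSR2_2 were the lowest. The log2 fold change was -0.26 with shCNKSR2_2 (SE 0.035, limma adjusted p = 1.33e-04). With shCNKSR2_1 it was -0.10 (SE 0.035, limma adjusted p = 0.0413). That call was kept without shCNKSR2_1 replicate 1 (-0.13, adjusted p = 0.0118) and lost without any other single library, control or hairpin, with adjusted p from 0.0516 to 0.134. It was also lost with the replicate number as a block (-0.10, adjusted p = 0.0612) and under median-ratio rescaling (-0.079, adjusted p = 0.118), over a range of 0.0118 to 0.455 in all 20 alternatives. The direct comparison placed Tnrc6a lower with shCNKSR2_2 than with shCNKSR2_1 by a log2 difference of -0.16 (SE 0.035, limma adjusted p = 0.00971), in 3 of 3 libraries. A full separation downward between the hairpins was seen for 19.5% of all genes.

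Tnrc6b, a paralogue with the same Argonaute-binding role, stood at 5.90, 5.70 and 5.52 FPKM in control libraries, at 4.83, 4.80 and 4.38 with shCNKSR2_1 and at 4.61, 4.77 and 4.78 with shCNKSR2_2. Every library of both Cnksr2 hairpins was below every control library, while the hairpin groups overlapped each other. Log2 fold changes were -0.24 and -0.23 (SE 0.045, limma adjusted p = 0.00211 and 0.00169, shCNKSR2_1 first here and below).

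Tnrc6c, the third paralogue, stood at 8.91, 8.57 and 9.75 FPKM in control libraries, at 7.55, 7.22 and 7.48 with shCNKSR2_1 and at 7.55, 7.41 and 7.38 with shCNKSR2_2. Again the control libraries lay above all 6 others, and the hairpin groups overlapped. Log2 fold changes were -0.26 and -0.25 (SE 0.046, limma adjusted p = 0.00162 and 0.00105). Between the hairpins, the difference was 0.013 for Tnrc6b (95% interval -0.086 to 0.11) and 0.0058 for Tnrc6c (-0.095 to 0.11), neither called. The calls of Tnrc6b and Tnrc6c against control were kept in all 20 alternatives for both hairpins.

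Summed over the paralogues, GW182 transcripts came to 29.8 ± 0.529 FPKM in controls. With shCNKSR2_1 the sum was 26.0 ± 0.773 and with shCNKSR2_2 it was 24.5 ± 0.0866 FPKM. The lowest control sum was 29.2 FPKM and the highest sum with either hairpin 26.8 FPKM. Tnrc6a made up 50.3% ± 0.792 of the sum in controls and 50.3% ± 0.197 with shCNKSR2_2, but 53.4% ± 0.344 with shCNKSR2_1. The share of Tnrc6b was 19.2% ± 0.815, 18.0% ± 0.657 and 19.3% ± 0.447 and that of Tnrc6c 30.5% ± 1.54, 28.6% ± 0.848 and 30.4% ± 0.271 in the same order. The composition of the sum with shCNKSR2_2 was thus within the control spread for each paralogue, while Tnrc6a took a larger share in every shCNKSR2_1 library (53.1% to 53.8%) than in any control library (49.5% to 51.1%).

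**Figure D3:**
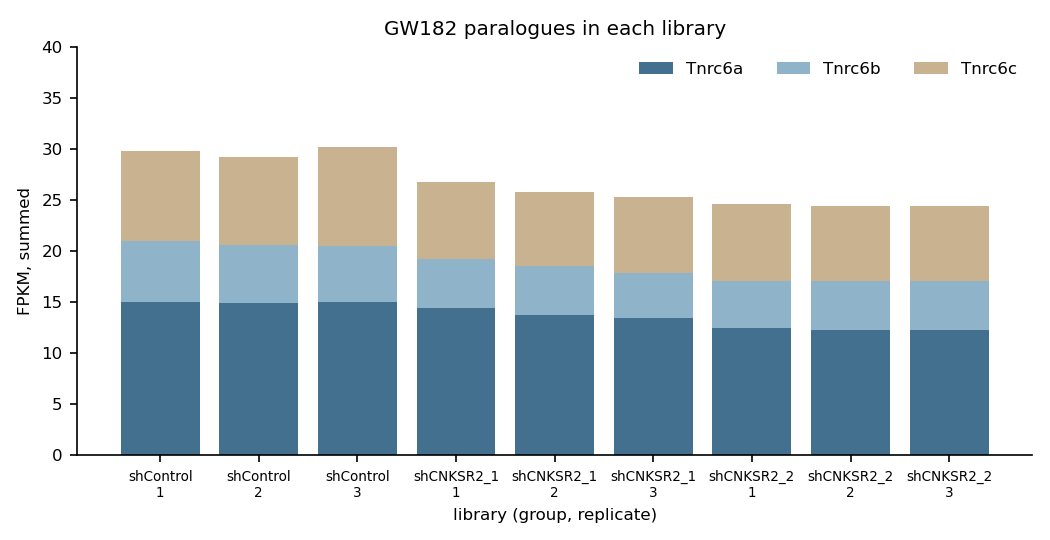
FPKM of Tnrc6a, Tnrc6b and Tnrc6c stacked in each of the 9 libraries, from 0. The bars reach 29.2 to 30.2 FPKM in control libraries, 25.3 to 26.8 with shCNKSR2_1 and 24.4 to 24.6 with shCNKSR2_2.

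Drosha, the nuclease that makes the first cut, stood at 29.1, 29.5 and 29.3 FPKM in control libraries, at 26.3, 26.2 and 26.7 with shCNKSR2_1 and at 26.6, 24.8 and 24.98 with shCNKSR2_2. Control libraries were above all others, and the hairpin groups overlapped. Log2 fold changes were -0.14 and -0.20 (SE 0.035, limma adjusted p = 0.00901 and 9.10e-04). The difference between the hairpins was -0.052 (95% interval -0.13 to 0.025, not called). Leaving out any single library kept both calls. On a scale from the control mean (0) to the mean of shCNKSR2_1 replicates 2 and 3 (1), replicate 1 of that hairpin, which stood apart over all genes, lay at 1.04 for Drosha, 0.872 for Tnrc6c, 0.763 for Tnrc6b and 0.391 for Tnrc6a. Without that library all 4 were still called lower. With it as the only library of its hairpin, an alternative chosen after seeing the data, Tnrc6b and Tnrc6c were called lower, while Tnrc6a (-0.051, limma adjusted p = 0.455) and Drosha (-0.15, adjusted p = 0.0689) were not.

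Dgcr8, which encodes the partner that positions Drosha on the hairpin, stood at 17.2, 17.1 and 17.7 FPKM in control libraries, at 16.9, 17.6 and 17.4 with shCNKSR2_1 and at 18.0, 18.6 and 17.8 with shCNKSR2_2. The shCNKSR2_1 libraries overlapped the controls, and those of shCNKSR2_2 were above them. With shCNKSR2_1 the log2 fold change was -0.0029 (95% interval -0.077 to 0.071, limma adjusted p = 0.959) and with shCNKSR2_2 it was 0.062 (-0.012 to 0.14, adjusted p = 0.154). The second was called higher under median-ratio rescaling (0.090, adjusted p = 0.0451), quantile normalization (0.087, adjusted p = 0.0481) and with a GC or length trend removed (0.091 and 0.090, adjusted p = 0.0222 and 0.0415), over a range of 0.0222 to 0.381 in all 20 alternatives. The ratio of Drosha to Dgcr8 FPKM was 1.69 ± 0.0344 in control libraries. It came to 1.53 ± 0.0350 with shCNKSR2_1 and to 1.40 ± 0.0685 with shCNKSR2_2, and no library of either hairpin reached the lowest control ratio of 1.66.

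The Dgcr8 transcript itself carries hairpins that Drosha and DGCR8 are known to cut. Their mature microRNAs, from RefSeq on build GRCm38.p6 and on the strand of the gene, are shown because the messenger measured here is also their precursor. Capitals mark the seed, bases 2 to 8, which pairs with targets. The small RNAs themselves were not measured.
miR-1306-3p: aCGUUGGCucugguggugaug
miR-1306-5p: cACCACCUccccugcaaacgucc
miR-3618-3p: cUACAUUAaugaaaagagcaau
miR-3618-5p: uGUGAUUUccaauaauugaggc

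Xpo5 stood at 37.1, 37.5 and 38.1 FPKM in control libraries, at 36.2, 36.8 and 36.9 with shCNKSR2_1 and at 36.7, 36.2 and 37.0 with shCNKSR2_2. Every library of both hairpins was below the lowest control library, by a margin smaller than the range of the controls. A full separation of this kind downward was seen for 26.6% of all genes with shCNKSR2_1 and for 34.7% with shCNKSR2_2. Log2 fold changes were -0.035 (95% interval -0.10 to 0.031) and -0.034 (-0.099 to 0.032), and neither was called (limma adjusted p = 0.393 and 0.373).

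Dicer1, which encodes the nuclease that trims the exported hairpin, had the largest log2 difference of the 8 genes between the hairpins. It stood at 11.5, 11.1 and 11.3 FPKM in control libraries, at 9.66, 10.2 and 9.87 with shCNKSR2_1 and at 11.6, 11.4 and 11.9 with shCNKSR2_2. All 3 shCNKSR2_1 libraries lay below the other 6, while shCNKSR2_2 overlapped the controls. Dicer1 fell by 0.17 on the log2 scale with shCNKSR2_1 (SE 0.036, limma adjusted p = 0.00385). With shCNKSR2_2 its log2 fold change was 0.039 (95% interval -0.040 to 0.12, limma adjusted p = 0.394). The direct comparison gave a log2 difference of 0.21, higher with shCNKSR2_2 in 3 of 3 libraries (SE 0.036, limma adjusted p = 0.00238). In that comparison 1 of the 8 genes, Dicer1, was called higher and 1, Tnrc6a, lower, beside 9.13% and 11.4% of all genes and 20.5% in either direction. Libraries separated fully upward for 2 of the 8, Dicer1 and Dgcr8, and for 18.4% of all genes. They separated fully downward for 1 of the 8, Tnrc6a, and for 19.5% of all genes. Both calls between the hairpins were kept in all 20 alternatives.

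Ago2, the Argonaute that can itself cleave a target, stood at 18.0, 17.9 and 18.1 FPKM in control libraries, at 17.4, 19.8 and 17.8 with shCNKSR2_1 and at 19.7, 19.1 and 19.6 with shCNKSR2_2. The shCNKSR2_2 libraries were all above the controls, a separation upward seen for 24.8% of all genes. Replicate 2 of shCNKSR2_1 was the highest of the 9 libraries, and the other 2 of its group were below the controls. The log2 fold change with shCNKSR2_1 was 0.026 (95% interval -0.074 to 0.13, limma adjusted p = 0.699) and became -0.028 without that library (adjusted p = 0.604, over a range of 0.120 to 0.793 in all 20 alternatives). With shCNKSR2_2 it was 0.11 (0.0066 to 0.21, limma unadjusted p = 0.0388, adjusted p = 0.0743), not called. It was called in 8 of 20 alternatives, among them median-ratio rescaling (0.13, adjusted p = 0.0319), quantile normalization (0.13, adjusted p = 0.0382), the fit without shCNKSR2_1 replicate 1 (0.11, adjusted p = 0.0437) and the fit without shCNKSR2_1 replicate 2 (0.11, adjusted p = 0.0210), over a range of 0.0163 to 0.168. Without that replicate 2, Ago2 was also called higher with shCNKSR2_2 than with shCNKSR2_1 (0.14, adjusted p = 0.0252, over a range of 0.0252 to 0.535), against 0.081 in the full fit (adjusted p = 0.236).

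The other Argonaute genes measured were Ago1 and Ago3. Ago1 went from 18.7 ± 0.491 FPKM to 17.03 ± 0.281 and 17.2 ± 0.182, and Ago3 from 5.43 ± 0.369 to 5.90 ± 0.551 and 6.54 ± 0.180. Ago1 fell by 0.13 and 0.12 (limma adjusted p = 0.0130 and 0.0145). Both calls were lost without shControl replicate 1 (adjusted p = 0.0609 and 0.0646), and the second also without shCNKSR2_2 replicate 3 (0.0532). The first was also lost with the length trend removed (0.0735) and with shCNKSR2_1 replicate 1 as the only library of its hairpin (0.106), and the second under median-ratio (0.0534) and quantile scaling (0.0542). Ago3 rose by 0.23 with shCNKSR2_2 (limma adjusted p = 0.00927) and had a change of 0.10 with shCNKSR2_1 (adjusted p = 0.222). The summed FPKM of Ago1, Ago2 and Ago3 was 42.1 ± 0.515, 41.3 ± 2.01 and 43.2 ± 0.199 in the 3 groups. Set against the summed GW182 FPKM, it gave ratios of 1.42 ± 0.0283 in controls, 1.59 ± 0.0970 with shCNKSR2_1 and 1.76 ± 0.0108 with shCNKSR2_2, without overlap between any groups.

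The 4 genes called lower with both hairpins were compared at their promoters, shown because they shared those calls. Of the 4, only Tnrc6a differed between the hairpins, and its call with shCNKSR2_1 depended on which libraries were used. Each line gives the 250 bases before the annotated start, 5′ to 3′ on the strand of the gene, from RefSeq on GRCm38.p6. That build is later than the mm9 of the submitters' processing notes, so these positions belong to the sequences and not to the deposited values. Capitals mark matches, on either strand, to the letters of SP1 (GGGCGG), NRF1, ETS (CCGGAAG), CRE (TGACGTCA), the E-box (CACGTG), YY1 and the CCAAT box (CCAAT). The start of Tnrc6b shown is the first of 2 listed.
Drosha, chr15:12824565-12824814, plus strand: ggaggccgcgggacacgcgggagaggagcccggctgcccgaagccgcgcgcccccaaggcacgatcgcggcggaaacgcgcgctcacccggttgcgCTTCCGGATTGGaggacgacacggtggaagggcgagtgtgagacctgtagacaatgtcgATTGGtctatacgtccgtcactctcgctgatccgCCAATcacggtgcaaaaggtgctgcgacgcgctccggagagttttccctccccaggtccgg
Tnrc6a, chr7:123123635-123123884, plus strand: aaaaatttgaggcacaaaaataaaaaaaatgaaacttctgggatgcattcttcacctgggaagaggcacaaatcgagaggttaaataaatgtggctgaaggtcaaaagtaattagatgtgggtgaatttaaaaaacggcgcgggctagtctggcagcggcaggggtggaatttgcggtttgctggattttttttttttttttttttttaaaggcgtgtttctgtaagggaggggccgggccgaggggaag
Tnrc6b, chr15:80711063-80711312, plus strand: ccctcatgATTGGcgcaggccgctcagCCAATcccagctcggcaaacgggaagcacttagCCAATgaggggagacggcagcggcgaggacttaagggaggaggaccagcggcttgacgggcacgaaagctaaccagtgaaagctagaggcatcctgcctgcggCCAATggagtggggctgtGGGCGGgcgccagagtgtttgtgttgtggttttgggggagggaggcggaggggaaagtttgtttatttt
Tnrc6c, chr11:117654039-117654288, plus strand: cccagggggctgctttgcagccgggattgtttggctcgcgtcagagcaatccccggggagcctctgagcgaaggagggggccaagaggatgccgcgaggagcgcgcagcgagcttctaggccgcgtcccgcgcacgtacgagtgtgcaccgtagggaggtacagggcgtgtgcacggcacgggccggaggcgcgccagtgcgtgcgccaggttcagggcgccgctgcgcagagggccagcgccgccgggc

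These stretches had no motif in common. Drosha held 1 ETS match and 3 CCAAT boxes, and Tnrc6b held 4 CCAAT boxes and 1 SP1 match, while Tnrc6a and Tnrc6c had no match to any of the 7. The second start of Tnrc6b held 1 E-box and no other match. Outside the 4 genes, Dgcr8 held 4 CCAAT boxes and 1 SP1 match, Dicer1 1 of each, and Xpo5 3 NRF1 matches and 1 SP1 match. Ago2 was not included in this promoter comparison. Of 32851 promoters in the same table and window, 33.8% held a CCAAT box, 32.7% an SP1 match and 6.91% an ETS match, and shares for the other motifs were 6.02% for the E-box, 4.98% for NRF1, 1.55% for CRE and 0.207% for YY1. CpG dinucleotides numbered 33 for Drosha, 31 for Tnrc6c, 14 for Tnrc6b and 9 for Tnrc6a. Over all promoters the median was 6 and the upper quartile 16. Dicer1, Dgcr8 and Xpo5, which were not called lower with both hairpins, had 39, 36 and 33. Such matches describe the letters of the window and not binding.

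The GW182 and Dicer transcripts were long. By the longest coding transcript in GENCODE vM21, Tnrc6b measured 17332 bases, longer than 99.9% of the 10288 genes with a length, Dicer1 9851, Tnrc6c 8847 and Tnrc6a 8183 bases, above 97.5%, 96.4% and 95.04%. Ago2, at 13800 bases, was longer than 99.5%. Drosha, at 4570 bases, and Dgcr8, at 4320, were nearer the median of 3154 bases. GC content lay between 46.8% and 53.9% for the 8, around the median of 49.8%. Removing a trend on transcript length left Tnrc6b, Tnrc6c and Drosha called lower with both hairpins and Tnrc6a with shCNKSR2_2, whereas Tnrc6a with shCNKSR2_1 went to -0.053 (adjusted p = 0.276). Transcript length as a cause of the changes was not tested.

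Genes whose log2(FPKM + 1) followed each machinery gene most closely over the 9 libraries were found by Pearson r. The 9 points fall into 3 groups and share those groups' differences, so r is a measure of likeness with no test. Tnrc6a was most like Hlcs (r = 0.997), Sez6l2 (0.996) and Bicc1 (0.995), each with log2 fold changes below 0 with both hairpins. Bicc1, an RNA-binding protein gene, had log2 fold changes of -0.24 and -0.56. Tnrc6b was most like Mki67 (r = 0.989), the gene of the proliferation antigen Ki-67, followed by Herc1 (0.987) and Galnt4 (0.984). Tnrc6c was most like Fbf1 (0.988), Gtf3c5 (0.987), a subunit of RNA polymerase III factor TFIIIC, and Ddr1 (0.986), a collagen receptor. Drosha was most like Pitrm1 (0.988), Spsb1 (0.985) and Unk (0.983). For Dicer1 these were Ptpn9 (0.980), Ipmk (0.976) and Ankrd13c (0.973), each with a log2 fold change below 0 with shCNKSR2_1 and between 0.016 and 0.039 with shCNKSR2_2. Values of r were lower for Dgcr8, Xpo5 and Ago2, led by Lmln (0.946), Frat2 (0.957) and Rab31 (0.942).

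Other genes of the pathway were taken from 8 lists by step, which held 93 measured genes beside the 8. Of these 93, 9 were called higher and 17 lower with shCNKSR2_1, and 11 higher and 28 lower with shCNKSR2_2. Their median log2 fold changes were -0.059 and -0.056. The background of all genes was 13.6% higher and 19.3% lower in the first comparison and 20% and 28.2% in the second.

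**Figure D4:**
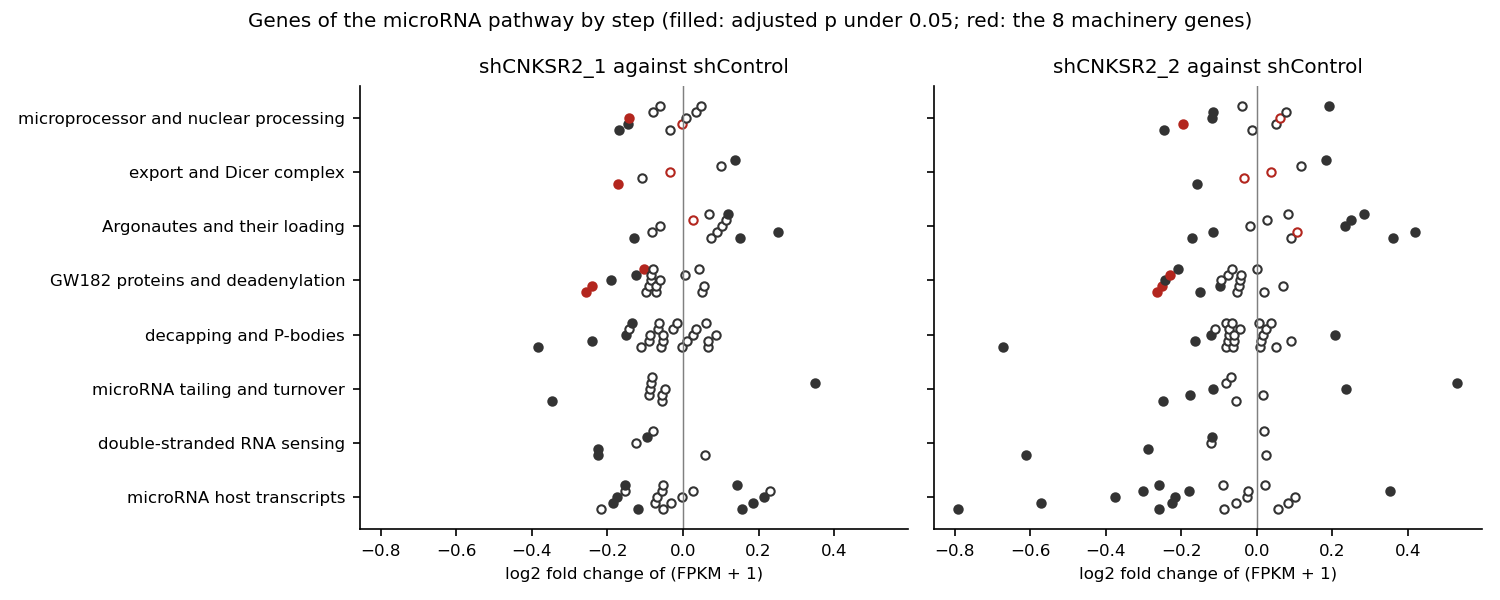
Log2 fold change of (FPKM + 1) of each measured gene of 8 microRNA pathway lists, for both hairpins against control. Filled points have an adjusted p under 0.05 and red points are the 8 machinery genes, which lie between -0.26 and 0.11.

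Among 14 further genes of deadenylation, the step that GW182 proteins recruit, none was called higher in either comparison by limma, and 2 and 4 were called lower. Pabpc1, the main cytoplasmic poly(A)-binding protein, went from 700.1 ± 12.0 FPKM to 613 ± 11.6 and 592 ± 19.6 (limma adjusted p = 0.00200 and 2.31e-04). Of 23 decapping and P-body genes, 4 were lower with shCNKSR2_1, and 3 lower and 1 higher with shCNKSR2_2. Mov10, an Argonaute-associated helicase, had the largest change there. It stood between 9.48 and 10.1 FPKM in control libraries, between 6.76 and 7.82 with shCNKSR2_1 and between 5.39 and 5.90 with shCNKSR2_2, without overlap between groups (-0.38 and -0.67, limma adjusted p = 4.03e-04 and 4.10e-06). The decapping enzyme gene Dcp2 fell by 0.24 with shCNKSR2_1 (limma adjusted p = 0.00265) and had a change of -0.044 with shCNKSR2_2 (adjusted p = 0.466).

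Among 8 further genes of nuclear processing, 2 were lower with shCNKSR2_1 and 3 lower and 1 higher with shCNKSR2_2. The helicase gene Ddx17, a partner of Drosha, fell by 0.24 with shCNKSR2_2 (limma adjusted p = 0.00170). With shCNKSR2_1 it fell by 0.17 (adjusted p = 0.0194), a call lost without shControl replicate 1 (0.0637) or shCNKSR2_1 replicate 3 (0.0725). Of 3 further genes of export and the Dicer complex, 1 was higher with shCNKSR2_1, and 1 was higher and 1 lower with shCNKSR2_2. Ran, the GTPase used by exportins, rose by 0.18 with shCNKSR2_2 (limma adjusted p = 0.00389). Its rise of 0.14 with shCNKSR2_1 (adjusted p = 0.0247) was no longer called when any 1 of 4 libraries was left out (0.0708 to 0.0904). Prkra, which encodes the Dicer partner PACT, was called lower with shCNKSR2_2 (-0.16, limma adjusted p = 0.0241). That call was lost without shControl replicate 1 (0.0678), shControl replicate 2 (0.0614) or shCNKSR2_2 replicate 3 (0.107), and under median-ratio (0.0538) and quantile scaling (0.0528). Of 11 further genes of Argonaute and its loading, 3 were higher and 1 lower with shCNKSR2_1, and 5 higher and 2 lower with shCNKSR2_2. The chaperone gene Hspa8, which helps load the duplex, went from 1122 ± 12.5 FPKM to 1337 ± 57.1 and 1501 ± 23.1 (0.25 and 0.42, limma adjusted p = 5.75e-04 and 8.73e-06). The chaperone genes Hsp90aa1 and Hsp90ab1 rose by 0.36 and 0.28 with shCNKSR2_2 (limma adjusted p = 1.04e-04 and 2.05e-04). With shCNKSR2_1 the changes were 0.089 (limma adjusted p = 0.161, not called) and 0.15 (adjusted p = 0.0156). The call of Hsp90ab1 there was lost when any 1 of 4 libraries was left out (0.0506 to 0.0583).

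In the list of microRNA tailing and turnover, 1 of 9 genes was higher and 1 lower with shCNKSR2_1, and 2 were higher and 3 lower with shCNKSR2_2. Papd5, a poly(A) polymerase, stood between 11.2 and 11.5 FPKM in control libraries, between 14.3 and 15.5 with shCNKSR2_1 and between 16.7 and 17.1 with shCNKSR2_2, without overlap (0.35 and 0.53, limma adjusted p = 5.79e-05 and 1.51e-06). Zcchc11, a terminal uridylyltransferase that tails small RNAs, fell by 0.35 and 0.25 (limma adjusted p = 9.49e-05 and 4.57e-04). Zswim8, which directs degradation of Argonaute on certain targets, rose by 0.24 with shCNKSR2_2 (limma adjusted p = 0.00199) and had a change of -0.057 with shCNKSR2_1 (adjusted p = 0.387). Of 6 measured genes for sensing of paired RNA strands, 3 were lower and 0 higher in each comparison by limma. Eif2ak2, the kinase PKR, and Ddx58, the helicase RIG-I, fell by 0.29 and 0.61 with shCNKSR2_2 (limma adjusted p = 0.00184 and 1.04e-04). Both were also called lower with shCNKSR2_1 (-0.22 for each, limma adjusted p = 0.0119 and 0.0484). The call of Eif2ak2 there was lost without shControl replicate 1 (0.0532). That of Ddx58 was lost when any 1 of 8 libraries was left out (0.0559 to 0.166) and with a replicate block (0.0563), and its libraries overlapped the controls.

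Genes that host microRNAs in their transcripts formed the last list, with 19 measured. With shCNKSR2_1, 4 were higher and 4 lower, and with shCNKSR2_2, 1 was higher and 9 lower. The microRNAs below are shown because some of these hosts carry sequences with the same seed, in capitals (bases 2 to 8). Each lies inside the named host on the same strand in RefSeq, GRCm38.p6. Copz1, Pank2 and Slit2 were added as seed partners of Copz2, Pank1, Pank3 and Slit3 after their values had been seen. Ctdsp1, Ctdsp2 and Ctdspl share a seed with each other and with none of those genes, and were also added after their values had been seen.
miR-107-3p in Pank1: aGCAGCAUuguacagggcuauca
miR-103-3p in Pank2 and Pank3: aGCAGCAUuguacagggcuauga
miR-148b-3p in Copz1: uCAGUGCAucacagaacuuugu
miR-152-3p in Copz2: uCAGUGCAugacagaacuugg
miR-26b-5p in Ctdsp1: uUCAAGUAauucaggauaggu
miR-26a-5p in Ctdsp2 and Ctdspl: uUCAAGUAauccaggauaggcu
miR-218-5p in Slit2 and Slit3: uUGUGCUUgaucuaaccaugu

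Hosts with a shared seed did not always move together. Pank1 and Pank3, genes of pantothenate kinases, went in opposite directions with shCNKSR2_2, Pank1 from 3.06 ± 0.0143 to 2.13 ± 0.0572 FPKM (-0.38, limma adjusted p = 3.50e-05) and Pank3 from 19.5 ± 0.793 to 25.15 ± 0.839 FPKM (0.35, adjusted p = 7.04e-05). Pank2, which hosts the same microRNA as Pank3, had a change of -0.086 with shCNKSR2_2 (limma adjusted p = 0.138). Pank3 also rose with shCNKSR2_1, by 0.21 (limma adjusted p = 0.00327), where Pank1 had a change of -0.12 (adjusted p = 0.0454). That call of Pank1 was lost when any 1 of 8 libraries was left out (0.0566 to 0.130) and with a replicate block (0.0790). Copz1 and Copz2, subunits of the coat of transport vesicles, both fell with shCNKSR2_2, by 0.22 and 0.79 (limma adjusted p = 3.17e-04 and 1.05e-04). Ctdsp1 and Ctdsp2, small phosphatases, fell by 0.26 and 0.30 with shCNKSR2_2 (limma adjusted p = 0.00382 and 6.90e-04). Their relative Ctdspl, which hosts the same microRNA as Ctdsp2, had a change of -0.089 with shCNKSR2_2 (limma adjusted p = 0.141). Ctdsp1 and Ctdsp2 were also called lower with shCNKSR2_1 (-0.17 and -0.15, limma adjusted p = 0.0385 and 0.0410). Those calls were lost when any 1 of 6 libraries (0.0556 to 0.135) and any 1 of 8 libraries (0.0532 to 0.143) was left out. Both were also lost with a replicate block (0.0515 and 0.0501). Slit3, a secreted guidance cue, fell by 0.57 with shCNKSR2_2 (limma adjusted p = 6.03e-05), whereas its paralogue Slit2 had a change of 0.10 (adjusted p = 0.0536). With shCNKSR2_1, Slit2 rose by 0.19 (limma adjusted p = 0.00420) and Slit3 had a change of -0.15 (adjusted p = 0.105). Slit3 and Copz2 with shCNKSR2_1 were called lower without replicate 1 of that hairpin (-0.23 and -0.35, adjusted p = 0.0101 and 0.00269, over ranges of 0.0101 to 0.982 and 0.00269 to 0.686 in all 20 alternatives). These are levels of host messengers, and host and microRNA need not change alike.

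**Figure D5:**
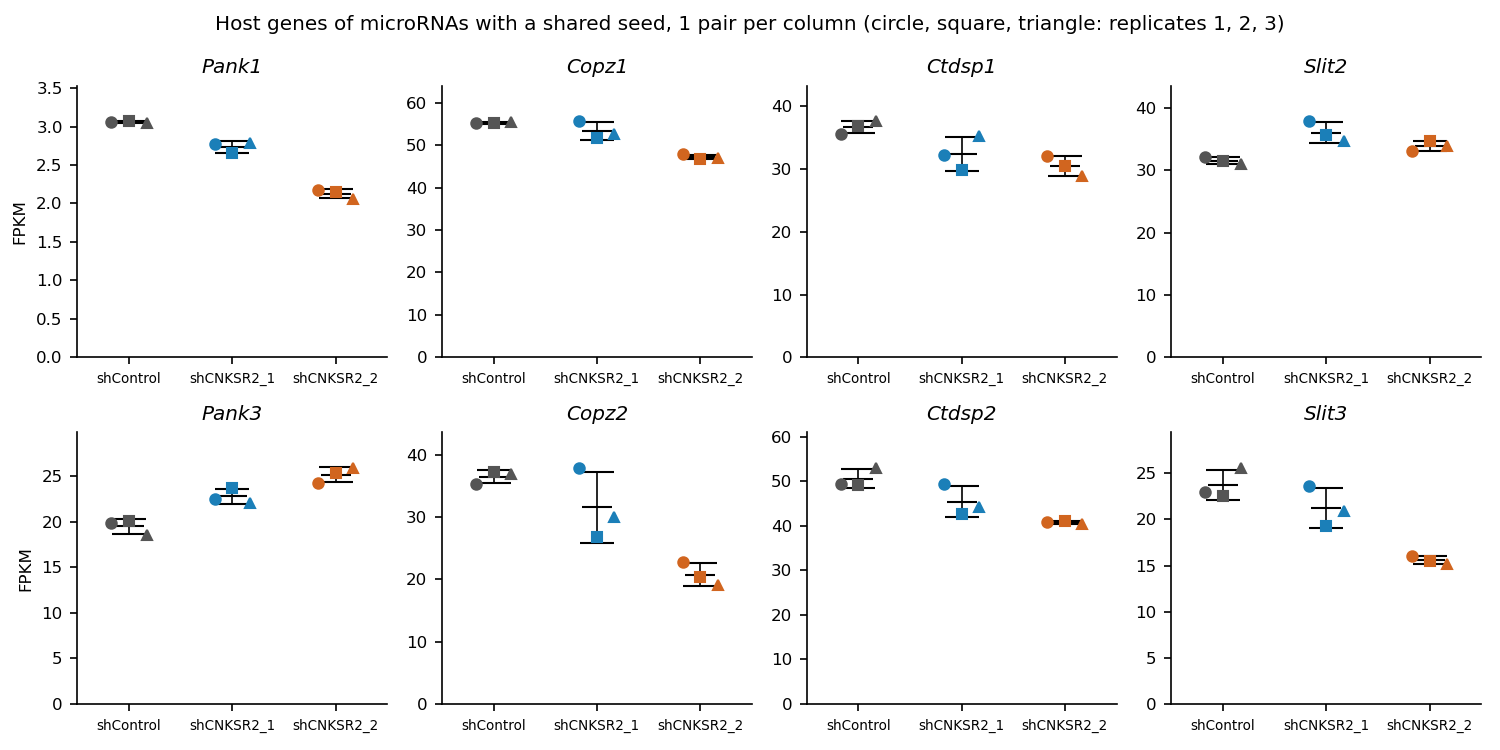
FPKM of pairs of genes that host microRNAs with a shared seed, 1 pair per column, in each of 9 libraries. Points are libraries and bars give the mean and SD of 3 libraries. Pank1 is lower and Pank3 higher with shCNKSR2_2 than in any control library, while Copz1 and Copz2 are both lower.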

How the data were processed

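Total RNA of 9 NIH 3T3 cultures, 3 per hairpin, was made into stranded messenger RNA libraries, per the labels' protocols. The deposited values are FPKM per gene, made by the authors with STAR (version written 25.1b) and Cufflinks 2.2.1 on genome build mm9, per the submitters' processing notes. The annotation, and whether strand was used in counting, are not given in the sources used here. The table lists 10340 genes, the lowest value is 1.00147 FPKM, and genes below that level were not analysed here. FPKM carries no read counts, so depth cannot be read from it and no interval for counting error was made.

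Groups were compared in R 4.3.3 with limma 3.58.1 on log2(FPKM + 1), with an intensity trend in the variance, 1 fit of all 9 libraries (6 residual degrees of freedom) and Benjamini-Hochberg adjustment over all genes. Standard errors are moderated. The procedure was tested on simulated data. The cultures are labelled as independent. Nothing in the labels says that equal replicate numbers share a batch. Deviations of same-numbered libraries from their group means correlated at 0.120, 0.184 and 0.428 between shControl and shCNKSR2_1, all above 0.1, so a replicate block is given there where it changes a call. They ran from -0.319 to 0.189 between shControl and shCNKSR2_2 and from -0.162 to 0.138 between the hairpins, and over all groups the own number correlated best in 8 of 18 cases.

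The 8 genes and the lists were chosen with earlier results of these data known. The rule for named genes was every machinery gene, up to 4 called genes per list by mean absolute log2 fold change, and the 3 genes most like each. Apart from hosts added as seed partners, list genes described in the Results had a call kept without any single library, except Ago1 and Prkra. This choice was made after the values were seen, and not every such gene is described. Where a described gene also had a call with shCNKSR2_1 that was lost without a single library, the call is given with its loss. Transcript lengths and GC content came from GENCODE vM21 (GRCm38), matched by symbol for 10288 genes, and sequences from RefSeq on GRCm38.p6. Alternatives were other pseudocounts (0.1 and 0.01), a minimum mean of 5 FPKM, no intensity trend in the variance, and median-ratio and quantile scaling. Further ones were GC and length trends removed, fits of only the groups compared, a replicate block, and leaving out libraries.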

Additional observations from a re-analysis of the deposited data

How the results depend on the processing

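Of 480 alternative values for the 8 machinery genes in 3 comparisons, 430 kept their direction and side of the threshold, 16 lost a call, 14 gained one and 20 changed sign, and the cause was not tested. Tnrc6b, Tnrc6c and Dicer1 with shCNKSR2_1, the GW182 genes and Drosha with shCNKSR2_2, and Tnrc6a and Dicer1 between hairpins kept their calls in all 20 alternatives.

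Tnrc6a with shCNKSR2_1 was not called under median-ratio (-0.079) or quantile scaling (-0.081), only the groups compared (-0.10), or with a GC (-0.076) or length trend removed (-0.053), and ranged from -0.13 to -0.083 when 1 library was left out. Dgcr8 with shCNKSR2_1 changed sign under median-ratio (0.022) and quantile scaling (0.020) and GC (0.026) and length trends (0.031), with leave-one-out values from -0.014 to 0.012. Dgcr8 with shCNKSR2_2 gained a call under the same 4 settings (0.090, 0.087, 0.091 and 0.090). Ago2 with shCNKSR2_2 gained one under those 4 (0.13, 0.13, 0.14 and 0.13) and with only the groups compared (0.11), and ranged from 0.099 to 0.12 with 1 library left out. Ago2 with shCNKSR2_1 ranged from -0.028 to 0.062. Removing the length trend turned Xpo5 with shCNKSR2_1 to 0.0037 and, between hairpins, Tnrc6b to -0.029, Tnrc6c to -0.020 and Xpo5 to -0.0098. Leave-one-out values between hairpins ran from -0.025 to 0.034 for Tnrc6b, -0.011 to 0.017 for Tnrc6c, -0.0071 to 0.0096 for Xpo5 and 0.045 to 0.14 for Ago2.

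Leaving out both shCNKSR2_1 replicates 2 and 3, an alternative chosen after seeing the data, leaves 1 library that is assumed to vary like the others. Against control it gave -0.051 for Tnrc6a and -0.15 for Drosha, no longer called, and -0.046 for Ago2. Ago2 was then called with shCNKSR2_2 (0.11) and between hairpins (0.15), where Tnrc6b went to -0.029 and Tnrc6c to -0.017. It also turned Copz1 (0.0076), Copz2 (0.054) and Hnrnpa1 (-0.060) with shCNKSR2_1. With 1 library left out, Hnrnpa1 with shCNKSR2_1 ran from -0.0086 (without shCNKSR2_1 replicate 2) to 0.10 (without replicate 1), and Dcp2 with shCNKSR2_2 was 0.011 under quantile scaling.

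Genes called lower with shCNKSR2_1 numbered 3 without both replicates and 4 to 5 with 1 library left out. Those called higher with shCNKSR2_2 numbered 2 under both scalings and both trends, 1 with only the groups compared, 1 without both replicates, and 0 to 1 with 1 library left out. Between hairpins, 2 were called higher without both replicates and 1 to 2 with 1 left out. With a replicate block over all 9 libraries, Tnrc6a with shCNKSR2_1 was -0.10 (limma adjusted p = 0.0612), no other call described for these 8 genes changed, and 1339 genes were called higher and 1866 lower with shCNKSR2_1. Unknown depth limits what can be said of low genes.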
